A study of Mus musculus with 31 samples.

Results

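The genes described here are 47 mouse genes whose products build the mitotic spindle, attach chromosomes to it, time chromosome separation or divide the cell. They were chosen by name as a mitosis, kinetochore and spindle group, and all 47 were found in both expression tables, which list 34865 genes for the bulk libraries and 55487 for the Smart-seq2 libraries. The bulk libraries were made from dorsal diencephalon and ventral diencephalon of wild-type mice at E10.5 (embryonic day), in 3 libraries each. Medial cortex at E11.5 was profiled by Smart-seq2, which copies whole transcripts from minute amounts of RNA, with 13 libraries labelled Emx1-cre(+/-)::MDMD::Axin2(-/-), called Axin2-null here, and 12 libraries of the matching Axin2(+/+) genotype, called wild type. Both Smart-seq2 genotypes came from mice that carried an Emx1-CreERT2 driver, MADM-11 and 1 Axin2LacZ allele. Emx1 drives Cre in progenitors of the dorsal forebrain, so the labelled cells stem from that lineage. MADM (mosaic analysis with double markers) exchanges arms between a chromosome pair during division, here chromosome 11, which carries Axin2, a negative regulator of Wnt signalling.

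Before a cell divides, cyclin B with Cdk1 drives entry into mitosis, microtubules form a spindle, and each chromosome is held by a kinetochore, a protein plate on its centromere. The spindle checkpoint keeps the anaphase-promoting complex (APC/C) off until all kinetochores are attached; the APC/C then marks securin and cyclin B for destruction, sister chromatids part, and the cell is pinched in 2. In the embryonic neural tube, radial glia and neuroepithelial progenitors divide at the ventricular surface, while the neurons born from them no longer divide. Most of these genes are transcribed late in the cycle under the MuvB complexes, which bind the CHR element (cell cycle genes homology region) through Lin54, together with NF-Y at the CCAAT box and FoxM1.

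Promoter sequence was read from the RefSeq windows on GRCm38.p6, which run 250 bases before to 50 bases after a start listed for the gene. For Kif2c, Cdca8 and Kif14 this start lies inside the gene as GENCODE M21 bounds it. The Kif2c gene, on the minus strand, begins at 117182639, while its window covers 117178723 to 117179022. These windows are counted below with the rest. A window was held for 40 of the 47 genes, with 2 windows for Prc1, so 41 windows were searched; the genes without one are Spc24, Kif20a, Aurkb, Incenp, Ccna2, Cdc25c and Tpx2. The CHR was searched as TTTGAA, or TTCAAA on the other strand, and the NF-Y box as CCAAT, or ATTGG on the other strand. A CHR match stood in 30 of the 41 windows, 73.2%, against 17.9% of all 32851 promoter windows. A CCAAT match stood in 28 of the 41, 68.3%, against 37.4% of all windows, and 2 or more CCAAT matches in 43.9%, against 11.7% of all windows. Both motifs were found together in 24 windows, 58.5%, against 6.95% of all windows. The motifs overlapped each other in 1 window.

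The stretches below are 150 bases each, read 5′ to 3′ on the gene's own strand from 120 bases before the start to 29 after it, with capitals marking CHR and CCAAT matches. Ccnb2, Cdk1, Cdc20 and Ube2c stand for the genes at entry to and exit from mitosis, and each holds both motifs. Ccnb1, more abundant per length in bulk than Cdk1 (73.4 against 31.7 TPM over all libraries), is not shown. Its window had 2 CCAAT matches and no CHR match. Spc25, Kif11 and Aspm stand for the kinetochore, the kinesins and the spindle poles. Anln is shown as the gene whose level differed least between the regions, and Nuf2 as a gene with neither motif. Their positions are chr9:70421525-70421674 (minus strand) for Ccnb2, chr10:69352883-69353032 (minus strand) for Cdk1, chr4:118437314-118437463 (minus strand) for Cdc20 and chr2:164769809-164769958 (plus strand) for Ube2c. Those of the rest are chr2:69206184-69206333 (minus strand) for Spc25, chr19:37376262-37376411 (plus strand) for Kif11, chr1:139454653-139454802 (plus strand) for Aspm, chr9:22389177-22389326 (minus strand) for Anln and chr1:169531435-169531584 (minus strand) for Nuf2.
Ccnb2: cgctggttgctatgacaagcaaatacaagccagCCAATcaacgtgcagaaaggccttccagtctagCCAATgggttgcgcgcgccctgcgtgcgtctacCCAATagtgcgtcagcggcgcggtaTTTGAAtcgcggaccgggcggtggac
Cdk1: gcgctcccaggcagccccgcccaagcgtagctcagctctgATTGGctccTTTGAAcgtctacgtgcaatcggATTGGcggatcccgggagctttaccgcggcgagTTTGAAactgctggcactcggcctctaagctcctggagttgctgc
Cdc20: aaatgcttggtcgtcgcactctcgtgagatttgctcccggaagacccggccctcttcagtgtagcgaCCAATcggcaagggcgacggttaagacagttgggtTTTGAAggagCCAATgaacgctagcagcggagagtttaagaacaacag
Ube2c: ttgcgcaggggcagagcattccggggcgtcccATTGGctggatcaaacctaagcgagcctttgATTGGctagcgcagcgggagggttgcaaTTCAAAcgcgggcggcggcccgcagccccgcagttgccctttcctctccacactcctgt
Spc25: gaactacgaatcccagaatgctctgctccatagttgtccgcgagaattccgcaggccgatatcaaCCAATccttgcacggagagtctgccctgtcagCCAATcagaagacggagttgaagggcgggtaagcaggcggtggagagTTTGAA
Kif11: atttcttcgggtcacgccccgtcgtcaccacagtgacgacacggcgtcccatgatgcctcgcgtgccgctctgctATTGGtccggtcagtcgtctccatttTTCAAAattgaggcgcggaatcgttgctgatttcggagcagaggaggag
Aspm: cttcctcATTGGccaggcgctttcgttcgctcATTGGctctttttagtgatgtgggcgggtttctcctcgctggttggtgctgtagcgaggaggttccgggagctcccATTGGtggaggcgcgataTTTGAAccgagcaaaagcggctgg
Anln: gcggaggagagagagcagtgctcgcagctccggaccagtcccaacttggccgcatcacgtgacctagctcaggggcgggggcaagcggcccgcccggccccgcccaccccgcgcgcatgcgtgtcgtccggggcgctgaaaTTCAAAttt
Nuf2: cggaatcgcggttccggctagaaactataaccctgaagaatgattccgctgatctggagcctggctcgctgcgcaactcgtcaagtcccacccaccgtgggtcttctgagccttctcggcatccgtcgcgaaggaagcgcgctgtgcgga

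In Ccnb2 there were 3 CCAAT boxes, beginning 87, 54 and 21 bases before the start, followed by a CHR that began 4 bases after it. Its window held another CHR at position -167, ahead of the printed stretch. Aspm had the order of the printed Ccnb2 stretch, with boxes at 113, 88 and 12 bases before the start and a CHR 6 bases after it. Cdc20 held its CHR 18 bases before the start, between boxes at 53 and 8 bases before it. Anln had 2 CHR matches, beginning 21 and 28 bases after the start, and no CCAAT box. The second runs past the end of the printed stretch and is not marked there. Across the 41 windows, 28 of 37 CHR matches began within 50 bases of the start, with a median position of 2 bases after it. Of 63 CCAAT matches, 46 began between 120 bases before the start and the start itself, with a median at position -67. A CHR match in the last 100 bases of the window was present in 63.4% of these windows and in 4.94% of all windows. Neither motif was in the windows of Birc5, Kif18a, Mad2l1, Nuf2, Nusap1, Plk4 or Tacc3, which says only that these letters are not there. Matches are a description of sequence and do not show that a factor is bound.

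**Figure D1:**
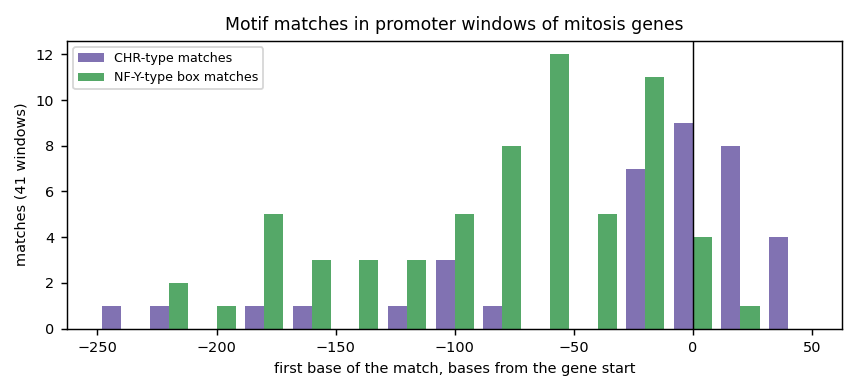
Number of motif matches by the distance of their first base from the start used for each window, in bases, over the 41 promoter windows of the mitosis genes. The vertical line marks the start. CHR-type matches (purple) gather around the start, with a median position of 2, and NF-Y-type boxes (green) before it, with a median of -67.

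The bulk libraries held 20622707, 20549866 and 17604176 estimated counts in dorsal diencephalon and 20838006, 19095392 and 17769774 in ventral diencephalon. Region markers followed the labels for 8 of 8 tested dorsal diencephalon markers (5 without dorsal library 1) and for 8 of 9 hypothalamic markers; Fezf2, the ninth, was higher in dorsal. Dorsal libraries also held the cortical transcript Emx1, at 22.8, 21.6 and 36.1 CPM (TMM-scaled counts set to a common library size) against 0, 0.0541 and 0 CPM in ventral. Ventral libraries held transcripts of gut and pancreas: all 10 small intestine markers and all 9 exocrine pancreas markers were higher in ventral, the gut markers summing to 6.87 to 10.2 CPM in dorsal against 1692 to 6322 CPM in ventral. Ventral library 3 stood apart from its group, correlating with the other ventral libraries at 0.925 and 0.914, against 0.987 between the other two. Dorsal library 3 stood apart less, at 0.962 and 0.959, against 0.995 between the other dorsal libraries. Nothing in the labels ties the 3 libraries of a region to separate embryos, so the tests measure the spread between these libraries.

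The mitosis genes were higher in dorsal than in ventral diencephalon almost without exception. Together they took 0.296%, 0.284% and 0.271% of all counts in the dorsal libraries and 0.0695%, 0.0821% and 0.0698% in the ventral libraries. All 47 were tested, and 43 passed as higher in dorsal (edgeR quasi-likelihood test, Benjamini-Hochberg adjusted p under 0.05 over 14701 genes), while 7.14% of all genes tested did so. Leaving out 1 library moved the number of mitosis genes between 33 and 45, and the share of all genes between 3.38% (without dorsal library 1) and 11.54% (without ventral library 3). None passed as higher in ventral with edgeR; at an unadjusted p under 0.05 the count was also 0, DESeq2 gave 0 as well, and 9.54% of all genes passed in that direction. The median log2 fold change, dorsal over ventral, was 1.97 for the mitosis genes and 0.01 for all genes tested; the mitosis genes ran from 0.42 (Anln) to 3.18 (Knl1), 42 passed with more than a 2-fold difference (5.38% of all genes) and 23 with more than a 4-fold difference (2.17%). The 3 dorsal libraries all lay above the 3 ventral ones for 45 of the 47, as they did for 19% of all genes tested. In bulk tissue, fewer dividing cells and less of these RNAs per cell cannot be told apart. The gut and pancreas transcripts move with the region as well, and their part in these differences was not tested.

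**Figure D2:**
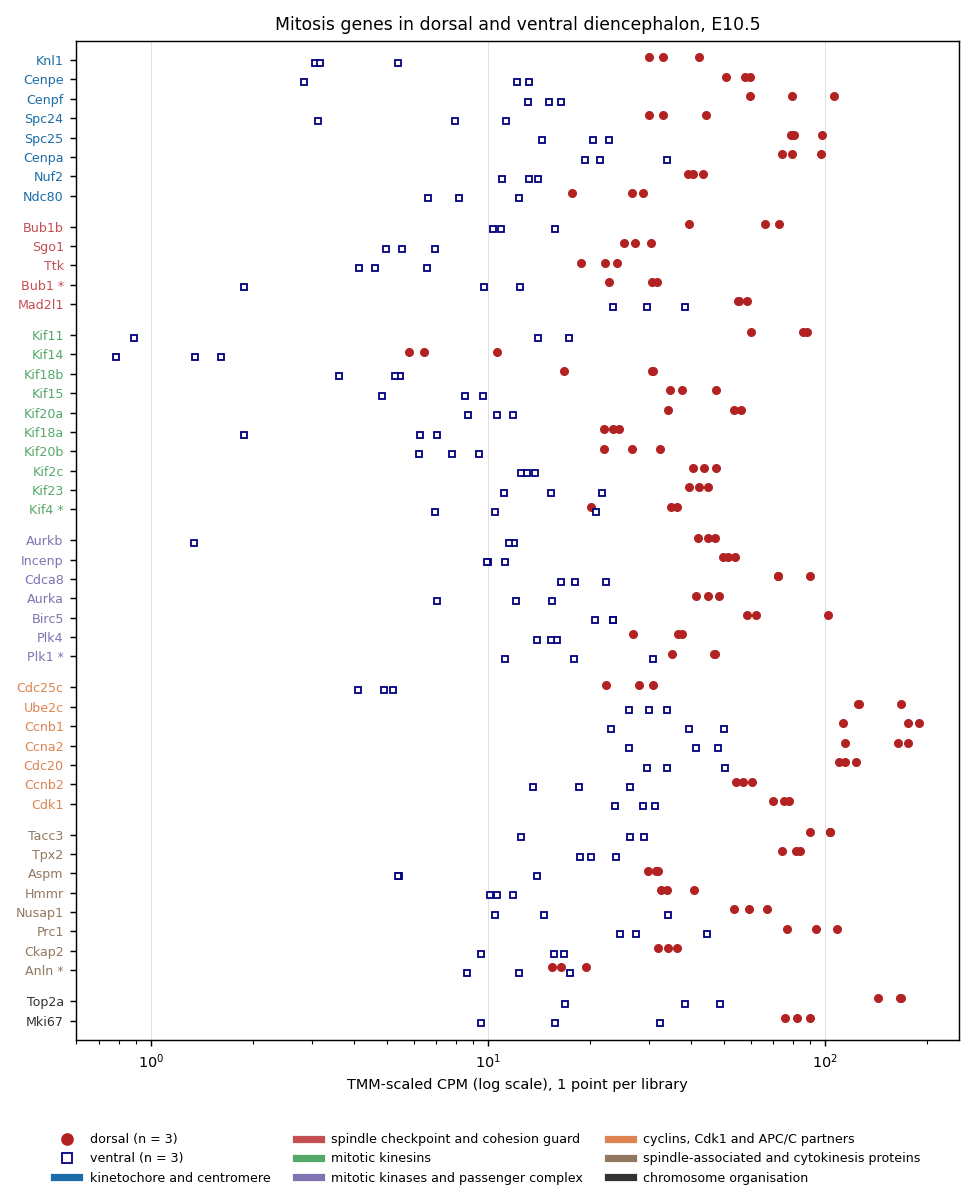
TMM-scaled CPM on a log axis for each of the 47 genes, 1 point per library, with dorsal as filled circles and ventral as open squares; name colours give the role group, and an asterisk marks a gene that did not pass the test. Dorsal points lie to the right of all ventral points for 45 genes; Kif4 and Anln overlap.

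Kinetochore and centromere genes all passed, 8 of 8, with summed levels of 444, 392 and 493 CPM in dorsal against 98.1, 115 and 91.8 CPM in ventral libraries. Knl1, the scaffold that joins the microtubule-binding Ndc80 complex to checkpoint proteins, had 42.3, 32.9 and 30 CPM in dorsal libraries and 3.06, 5.41 and 3.17 CPM in ventral libraries. It showed the largest fold change of all 47 genes, 3.18 ± 0.32 on the log2 scale (SE; edgeR adjusted p = 0.000615). Spc25, a subunit of the Ndc80 complex, had 80.6, 79.2 and 97.4 CPM in dorsal against 20.4, 22.8 and 14.4 CPM in ventral libraries. Every dorsal library exceeded every ventral one by a wide margin, with a log2 fold change of 2.16 ± 0.23 (edgeR adjusted p = 0.000713). Cenpa, the histone H3 variant that marks the centromere, had 79.5, 74.4 and 97 CPM in dorsal against 19.4, 21.5 and 33.8 CPM in ventral libraries; the log2 fold change was 1.75 ± 0.26 (edgeR adjusted p = 0.00315). Ndc80, the outer kinetochore protein that grips the microtubule, had 28.7, 26.6 and 17.7 CPM in dorsal against 6.61, 12.3 and 8.18 CPM in ventral libraries. The regions did not overlap, but its fold change was the smallest of the group at 1.43 ± 0.33 (edgeR adjusted p = 0.0222), and the call ended without dorsal library 1, dorsal library 2 or ventral library 1, the adjusted p over the 6 omissions running from 0.0194 to 0.11. Its partners Nuf2 and Spc24 and the microtubule-side proteins Cenpe (a kinesin that carries chromosomes to the plate) and Cenpf had log2 fold changes of 1.68, 2.25, 2.57 and 2.46.

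Spindle checkpoint genes and the cohesion guard Sgo1 passed in 4 of 5 cases. Bub1b, which encodes BubR1, a part of the inhibitor that holds back the APC/C, had 66.4, 72.6 and 39.3 CPM in dorsal against 15.8, 10.9 and 10.3 CPM in ventral libraries. Dorsal library 3 was low for its group and still far above any ventral library; the log2 fold change was 2.27 ± 0.31 (edgeR adjusted p = 0.00216). Mad2l1, which encodes the checkpoint protein Mad2, had 58.5, 55.3 and 55.1 CPM in dorsal against 23.4, 29.6 and 38.3 CPM in ventral libraries. Its dorsal values were nearly equal, and its log2 fold change of 0.89 ± 0.22 (edgeR adjusted p = 0.0292) was the smallest among the genes that passed; the call ended without dorsal library 1 or 2 or ventral library 1 or 2, with adjusted p from 0.00621 to 0.121 over the 6 omissions. Bub1, the kinase that recruits shugoshin and BubR1 to centromeres, had 30.5, 31.6 and 22.8 CPM in dorsal against 9.71, 12.4 and 1.89 CPM in ventral libraries. The regions did not overlap, yet the low value of ventral library 3 widened the spread, and it did not pass (log2 fold change 1.82 ± 0.58, edgeR adjusted p = 0.0724; 0.00696 without ventral library 3, with a range of 0.00696 to 0.179 over all alternatives). Ttk, the kinase Mps1 that starts checkpoint signalling, and Sgo1, which shields centromeric cohesin, had log2 fold changes of 2.08 and 2.24.

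Mitotic kinesins, the motors that build and reshape the spindle, passed in 9 of 10 cases. Kif11 (Eg5), which slides spindle poles apart, had 85.8, 88.3 and 60.2 CPM in dorsal against 14, 17.3 and 0.89 CPM in ventral libraries. Ventral library 3 lay far below the other two, so the log2 fold change of 2.86 ± 0.8 carried a wide error (edgeR adjusted p = 0.0462); without that library it was 2.29 with an adjusted p of 0.000869, and the call ended without any 1 of the other 5 libraries, at up to 0.114. Kif20a, needed for the central spindle in cytokinesis, had 53.5, 56.3 and 34.1 CPM in dorsal against 11.8, 10.6 and 8.68 CPM in ventral libraries. Kif2c (MCAK), which takes microtubules apart at centromeres to correct wrong attachments, had 43.7, 47.3 and 40.6 CPM in dorsal against 12.5, 13.8 and 13 CPM in ventral libraries. These genes were the most abundant of the group per transcript length, and both passed, with log2 fold changes of 2.21 ± 0.27 and 1.74 ± 0.19 (edgeR adjusted p = 0.0014 and 0.000909).

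Kif4, a chromosome-arm kinesin, had 36.2, 34.9 and 20.2 CPM in dorsal against 6.95, 10.54 and 20.9 CPM in ventral libraries. The highest ventral library, number 3, lay above the lowest dorsal one, and the gene did not pass (log2 fold change 1.25 ± 0.43, edgeR adjusted p = 0.0917; 0.00888 without ventral library 3, with a range of 0.00888 to 0.257 over all alternatives). Kif14, which acts at the midbody, was the least abundant of the 47, with 6.44, 5.81 and 10.6 CPM in dorsal against 0.789, 1.35 and 1.61 CPM in ventral libraries. Its regions were far apart (log2 fold change 2.6 ± 0.51, edgeR adjusted p = 0.0116), and the call ended only without ventral library 1, with adjusted p between 0.00659 and 0.0504 over the omissions. Kif18a, which limits chromosome oscillations, had 23.4, 22.1 and 24.4 CPM in dorsal against 6.26, 7.03 and 1.89 CPM in ventral libraries. Kif23 (MKLP1), of the centralspindlin complex, had 44.9, 39.3 and 42.2 CPM in dorsal against 11.1, 15.3 and 21.8 CPM in ventral libraries. Both were steady in dorsal, and ventral library 3 was the lowest for Kif18a and the highest for Kif23; their log2 fold changes were 2.2 ± 0.47 and 1.39 ± 0.27 (edgeR adjusted p = 0.0157 and 0.0115), and both calls ended without dorsal library 1, at 0.0558 and 0.0543, against lowest values of 0.00131 and 0.002. Kif15, Kif18b and Kif20b had log2 fold changes of 2.37, 2.45 and 1.79.

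Among mitotic kinases and the chromosomal passenger complex, 6 of 7 genes passed. Aurkb, the kinase of that complex, which corrects attachments and later drives cytokinesis, had 41.9, 46.9 and 44.9 CPM in dorsal against 11.9, 11.46 and 1.34 CPM in ventral libraries. As with Kif11, ventral library 3 was far below its group: the log2 fold change was 2.44 ± 0.65 (edgeR adjusted p = 0.0397), it was 1.9 with an adjusted p of 0.000584 without that library, and the call ended without any 1 of the other 5 libraries, at up to 0.0956. The other passenger proteins did not share this dip. Birc5 (survivin) had 58.4, 62.2 and 102 CPM in dorsal against 20.7, 23.4 and 23.5 CPM in ventral libraries, a log2 fold change of 1.72 ± 0.26 (edgeR adjusted p = 0.00335). Incenp and Cdca8 (borealin) had log2 fold changes of 2.32 and 2.04, and Aurka, the kinase of the spindle poles, 1.96.

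Plk1, a kinase that acts from entry to cytokinesis, had 46.7, 47.1 and 35 CPM in dorsal against 18, 30.8 and 11.2 CPM in ventral libraries. The regions were close, with ventral library 2 near dorsal library 3, and the gene did not pass (log2 fold change 1.1 ± 0.36, edgeR adjusted p = 0.0781; DESeq2 adjusted p = 0.0299; 0.025 to 0.22 over all alternatives). Plk4, which licenses centriole duplication, had 37.6, 36.6 and 26.9 CPM in dorsal against 16, 13.9 and 15.3 CPM in ventral libraries. Its ventral values were nearly equal, the log2 fold change was 1.16 ± 0.22 (edgeR adjusted p = 0.0105), and the call ended without dorsal library 1, dorsal library 2 or ventral library 2, with 0.00708 to 0.0693 over the omissions.

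Cyclins, Cdk1 and partners of the APC/C included the 5 most abundant genes per length over all 6 libraries (Cdc20, Ube2c, Ccnb1, Ccna2 and Ccnb2), and all 7 of 7 passed, in each omission of a library as well. Their summed level was 748, 748 and 679 CPM in dorsal against 188, 238 and 161 CPM in ventral libraries. Cdc20, the activator of the APC/C and target of the checkpoint, had 114, 109.6 and 123 CPM in dorsal against 33.8, 50.2 and 29.5 CPM in ventral libraries. Per transcript length it was the most abundant of the 47 genes, at 197 TPM in dorsal and 53.3 TPM in ventral on average, and its log2 fold change was 1.61 ± 0.23 (edgeR adjusted p = 0.00275). Ube2c, the ubiquitin-conjugating enzyme that works with the APC/C, had 126, 125 and 168 CPM in dorsal against 26.1, 29.9 and 33.9 CPM in ventral libraries. It was next in level in dorsal, at 171 TPM, while its 30.9 TPM in ventral lay below the 33.4 TPM of Ccnb2, and it had a log2 fold change of 2.22 ± 0.2 (edgeR adjusted p = 0.000356). Cdk1 had 70.1, 75.4 and 77.9 CPM in dorsal against 23.7, 28.7 and 31.2 CPM in ventral libraries, tight in both regions, with the smallest fold change of the group (log2 1.42 ± 0.18, edgeR adjusted p = 0.00177). Cdc25c, a phosphatase that activates Cdk1, had 30.8, 28 and 22.4 CPM in dorsal against 5.23, 4.92 and 4.12 CPM in ventral libraries and the largest (log2 2.51 ± 0.27, edgeR adjusted p = 0.000747). Ccna2, Ccnb1 and Ccnb2 had log2 fold changes of 1.97, 2.09 and 1.55.

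Spindle-associated and cytokinesis genes passed in 7 of 8 cases, and in 4 of 8 without dorsal library 1. Tacc3, which stabilises kinetochore fibres, had 103, 103 and 90.2 CPM in dorsal against 26.3, 28.9 and 12.5 CPM in ventral libraries. Tpx2, which activates Aurora A and nucleates microtubules, had 81.8, 83.8 and 74.5 CPM in dorsal against 18.7, 23.9 and 20.2 CPM in ventral libraries. These were the group's most abundant genes per length, with log2 fold changes of 2.13 ± 0.31 and 1.94 ± 0.18 (edgeR adjusted p = 0.00314 and 0.000443). Aspm, a spindle-pole protein whose loss causes microcephaly in humans, had 31.9, 31.5 and 29.7 CPM in dorsal against 5.42, 5.41 and 13.9 CPM in ventral libraries. Ventral library 3 was above the other ventral libraries and still below every dorsal one; the log2 fold change was 1.92 ± 0.4 (edgeR adjusted p = 0.0147), and the call ended without dorsal library 1 or ventral library 1, with 0.000267 to 0.0562 over the omissions. Nusap1, which bundles spindle microtubules near chromosomes, had 67.3, 59.4 and 53.5 CPM in dorsal against 10.45, 14.6 and 34.2 CPM in ventral libraries. Again the third ventral library was high; the log2 fold change was 1.61 ± 0.42 (edgeR adjusted p = 0.0351), it was 2.23 with an adjusted p of 0.000789 without that library, and the call ended without any 1 of the other 5, at up to 0.117.

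Ckap2, a microtubule-stabilising protein, had 34.2, 31.8 and 36.3 CPM in dorsal against 16.8, 15.7 and 9.51 CPM in ventral libraries. The regions did not overlap (log2 fold change 1.28 ± 0.27, edgeR adjusted p = 0.014), and the call ended only without dorsal library 1, with 0.00662 to 0.0629 over the omissions. Anln (anillin), which organises the contractile ring, had 19.5, 15.5 and 16.4 CPM in dorsal against 12.3, 17.5 and 8.62 CPM in ventral libraries. Its regions overlapped, and it was the gene furthest from the threshold, with a log2 fold change of 0.42 ± 0.32 (edgeR adjusted p = 0.418; 0.261 to 0.72 over all alternatives). Prc1, which crosslinks the central spindle, and Hmmr, a spindle-pole adaptor, had log2 fold changes of 1.53 and 1.72.

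Both genes of chromosome organisation passed. Top2a, the topoisomerase that untangles sister chromatids, had 166, 167 and 143 CPM in dorsal against 38.3, 48.8 and 16.9 CPM in ventral libraries, a log2 fold change of 2.19 ± 0.36 (edgeR adjusted p = 0.00516). Mki67, whose product coats mitotic chromosomes and is the usual marker of cycling cells, had 82.3, 75.9 and 89.8 CPM in dorsal against 9.52, 15.8 and 32.3 CPM in ventral libraries. The dorsal libraries lay well above the ventral ones in both genes, but ventral library 3 was the lowest for Top2a and the highest for Mki67; the log2 fold change of Mki67 was 2.11 ± 0.41 (edgeR adjusted p = 0.0109).

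**Figure D3:**
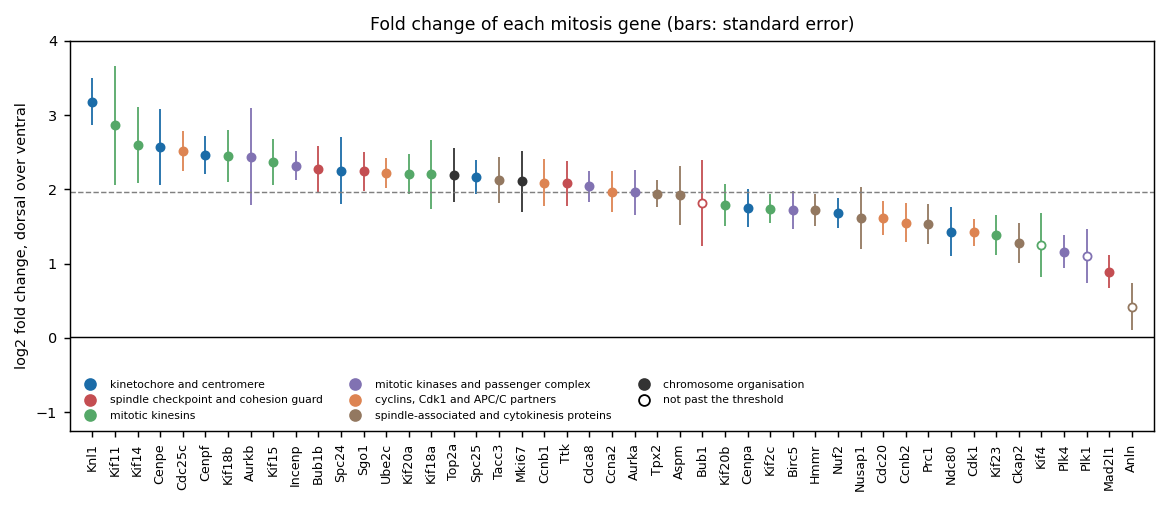
Log2 fold change, dorsal over ventral, with its standard error for the 47 genes in order of size, coloured by role group; open circles did not pass the test. The dashed line is the median of these genes, 1.97, and the solid line the median of all genes tested, 0.01; all 47 values are above 0.

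The level of a gene varied more between the ventral libraries than between the dorsal libraries. The coefficient of variation of each gene over the libraries of a region had a median over the 47 genes of 12.5% in dorsal and 31.2% in ventral. Ventral library 3 held the lowest ventral value for 24 genes and the highest for 13. Its summed level of the 47 genes was 690.1 CPM, against 714 and 848 CPM in ventral libraries 1 and 2. Without ventral library 3, 45 of the 47 genes passed as higher in dorsal, as did 1695 of all 14685 genes tested. The order of length-scaled levels was nearly the same in both regions, with a Spearman correlation of 0.91 over the 47 genes, and the fold change had a Spearman correlation of -0.14 with the level; both describe genes of the same 6 libraries.

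With all libraries in the test, genes of the same processes outside the 47 were also higher in dorsal where they passed. Their shares were smaller than among the 47, beside the 7.14% of all genes tested that did so. This background moved with the setting. Omitting dorsal library 1, 2 or 3 gave 3.38%, 3.79% and 9.68% of all genes. For the ventral libraries, in the same order, the shares were 3.61%, 4.12% and 11.54%. Replicate number as a block gave 6.29%. Counts given for these settings, here and for the lists further on, are to be read beside these shares. The lists were drawn up with earlier results of these data known. Of 28 other kinetochore genes 10 passed as higher in dorsal (35.7%), among them Ska1, of the complex that tracks microtubule ends, with 8.97, 10.8 and 14.4 CPM in dorsal against 2.22, 2.22 and 2.61 CPM in ventral libraries (log2 fold change 2.27, edgeR adjusted p = 0.00547). That count was 3 without dorsal library 1 or dorsal library 2, 2 without ventral library 1, 4 without ventral library 2, 16 without ventral library 3 and 5 with replicate number as a block. Of 20 condensin, cohesin and separase genes 10 passed (50%), among them Espl1, the separase that cuts cohesin, with 22.6, 24.6 and 17.8 CPM in dorsal against 4.59, 2.54 and 0.278 CPM in ventral libraries (log2 fold change 3.12, edgeR adjusted p = 0.0286). In this list 4 passed without dorsal library 1 and 6 without dorsal library 2 or ventral library 1. Without ventral library 3, 1 gene of the list passed as higher in ventral. Pttg1 (securin) had a log2 fold change of -0.93 and did not pass with all libraries (edgeR adjusted p = 0.136). Of 19 other spindle and cytokinesis genes 9 passed (47.4%), led by Gtse1 and Spag5 with log2 fold changes of 3.01 and 2.32; 5 passed without dorsal library 1, dorsal library 2 or ventral library 1, and 14 without ventral library 3. Of 21 centriole and spindle pole genes 4 passed (19%; 2 without any 1 of dorsal libraries 1 and 2 or ventral libraries 1 and 2, and 8 without ventral library 3), with Cep152 and Cdk5rap2 at log2 fold changes of 1.55 and 1.29.

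Of 17 genes of the APC/C and its regulators 2 passed, the inhibitor Fbxo5 (Emi1) and the core subunit Anapc1. That is 11.8%, near the 7.14% of all genes tested, and the median log2 fold change was 0.01, equal to that of all genes. The summed level was 2346, 2463 and 2448 CPM in dorsal against 2271, 2393 and 2233 CPM in ventral libraries, ranges that overlapped. Fbxo5 had 24.9, 28.2 and 29.8 CPM in dorsal against 7.1, 6.92 and 8.23 CPM in ventral libraries (log2 fold change 1.9, edgeR adjusted p = 0.00148). Anapc1 stood at the threshold (edgeR adjusted p = 0.0497), and the count was 1 with RLE scaling, with a minimum of 0.5 CPM in both regions, and without any 1 library except dorsal library 3. Of 10 genes that control mitotic entry 4 passed (1 without dorsal library 1, dorsal library 2 or ventral library 1; 2 without ventral library 2 or with the replicate block), with Cdc25b and Pkmyt1 at log2 fold changes of 2.1 and 1.57.

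Of the 12 transcription factors and MuvB subunits that act on these promoters, Foxm1 alone passed, 8.33% against 7.14% of all genes tested, so the list did not stand out. Foxm1 had 56.1, 52.1 and 28.5 CPM in dorsal against 7, 8.98 and 1.45 CPM in ventral libraries, a log2 fold change of 2.97 ± 0.61 (edgeR adjusted p = 0.0134). The count was 2 without dorsal library 3 or with no filter on low values, 3 without ventral library 3 and 4 with DESeq2, by which 10.52% of all genes passed. Lin54, the CHR-binding subunit, averaged 20 CPM in dorsal against 16.8 CPM in ventral libraries, and Nfyb 108 CPM in dorsal against 76.4 CPM in ventral, neither past the threshold.

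Earlier steps of the cell cycle showed the same direction with smaller differences. Of 24 S phase genes 16 passed as higher in dorsal, with a median log2 fold change of 1.23; Rrm2, of ribonucleotide reductase, had 288, 271 and 171 CPM in dorsal against 44.5, 55.7 and 30.7 CPM in ventral libraries (log2 fold change 2.48, edgeR adjusted p = 0.00121). That count was 8 without dorsal library 1 or ventral library 1, 9 without dorsal library 2 and 10 without ventral library 2. The summed mitosis genes stood at 1.29, 1.23 and 1.36 times the summed S phase genes in dorsal libraries and at 0.674, 0.772 and 0.744 times in ventral libraries. Those ratios did not overlap; with 3 libraries against 3 no exact permutation test can fall below 0.1, and none was run. Of 8 D-type and E-type cyclins and their kinases 4 passed, among them Ccnd2 at 404, 325 and 455 CPM in dorsal against 111, 114 and 100.4 CPM in ventral libraries (log2 fold change 1.86, edgeR adjusted p = 0.000443). Of 12 tested cell cycle brakes Cdkn1a (p21) alone passed (8.33%, near the 7.14% of all genes tested), averaging 40.3 CPM in dorsal libraries against 12.4 CPM in ventral ones; the count was 0 without dorsal library 1 or 2, 2 without dorsal library 3 and 3 without ventral library 3, with DESeq2 or with the replicate block.

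Cell type markers moved with the region beside the mitosis genes. Of all genes tested, 7.14% passed as higher in dorsal and 9.54% as higher in ventral. Neural progenitor markers summed to 954, 947 and 1178 CPM in dorsal against 783, 769 and 922 CPM in ventral libraries; of 13, 5 passed as higher in dorsal (Pax6, Nes, Notch1, Prom1 and Fabp7) and 2 as higher in ventral (Sox1 and Sox3). Without dorsal library 1 or 2 these counts were 3 and 0. The share of all genes that passed as higher in dorsal was then 3.38% without library 1 and 3.79% without library 2. Intermediate progenitor markers, of a cell type that also divides, summed to 974, 959 and 1235 CPM in dorsal against 330.5, 327 and 427 CPM in ventral libraries; Eomes, Neurog1 and Neurog2 passed as higher in dorsal, 3 of 6, and the median log2 fold change of the list was 2.37. Cajal-Retzius cell markers summed to 469, 485 and 415 CPM in dorsal against 160.3, 168 and 231 CPM in ventral libraries, and medial cortex markers to 1051, 990.4 and 1097 CPM in dorsal against 83.6, 89.2 and 99.1 CPM in ventral libraries. Both sums were thus higher in every dorsal library than in any ventral one, as the summed mitosis genes were. Of 6 Cajal-Retzius markers 3 passed as higher in dorsal (Trp73, Reln and Calb2). Lhx5 passed as higher in ventral, averaging 50.5 CPM in dorsal against 110.0 CPM in ventral libraries (log2 fold change -1.12, edgeR adjusted p = 0.00517). Of 7 medial cortex markers 5 passed as higher in dorsal and 0 as higher in ventral. Neuron markers summed to 6988, 7196 and 6765 CPM in dorsal against 8565, 7900.1 and 8422 CPM in ventral libraries. Of 15, 2 passed as higher in dorsal (13.3%) and 5 as higher in ventral. Without dorsal library 1 or 2 the counts were 0 and 1, without ventral library 1 they were 1 and 1, and without ventral library 2 they were 0 and 2. The mitosis genes summed to 3.01, 2.96 and 2.29 times the progenitor markers in dorsal libraries and to 0.912, 1.1 and 0.749 times in ventral libraries. Set against neuron markers, the ratios were 0.41, 0.389 and 0.399 in dorsal and 0.0834, 0.107 and 0.0819 in ventral libraries. What part the cell makeup of the tissue has in the difference was not tested.

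The Smart-seq2 table gives TPM (a share of transcripts scaled to the same total in each library), which keeps no sequencing depth, so depth is unknown for these libraries. Its columns carry a letter, G or R, with a running number that could not be tied to a sample. The letters match sample descriptions that start with Green and Red, and the titles of those samples give Axin2-null for Green and wild type for Red. Colour and genotype thus go together in every library and cannot be told apart. Each sample is labelled a cell, with no animal given, so a genotype is 1 sample here and no test was made; ranges and SDs describe these libraries only. Libraries held 7863 to 11852 genes at 1 TPM or more in Axin2-null (median 10791) and 8693 to 12209 in wild type (median 11271). Axin2 itself was listed at 0 to 22.4 TPM in null libraries (median 3.28) and at 4.32 to 35.9 TPM in wild-type libraries (median 13.2), so the genotypes overlapped; whether those reads cover the altered part of the allele is not given in the sources used here. The 7 medial cortex markers summed to 286 to 560.5 TPM in null and 360.3 to 731 TPM in wild-type libraries, and small intestine markers summed to at most 3.27 TPM in null and 13.5 TPM in wild-type libraries.

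Mitosis genes were detected in every Smart-seq2 library. At 1 TPM or more, 38 to 47 of the 47 were present in Axin2-null libraries and 41 to 47 in wild-type libraries, with a median of 46 in each. Their summed level was 2225 to 7008 TPM in null libraries (median 4479; mean 4921 ± 1339 SD, n = 13) and 2405 to 6536 TPM in wild-type libraries (median 5451; mean 5035 ± 1254 SD, n = 12). The genotypes overlapped almost wholly. The mean log2(TPM + 1) over the 47 genes was 5.48 ± 0.551 in null and 5.77 ± 0.518 in wild-type libraries. The median difference, null minus wild type, was -0.2 for the mitosis genes and -0.22 for all 13680 genes whose mean reached 1 TPM; 34 were lower in null and 13 higher, and 65.9% of all genes were lower. A difference of at least 1 on this scale was reached by 4 genes, all lower in null (Ndc80, Kif11, Incenp and Kif2c), or 8.51%, against 8.14% of all genes; none was higher by 1, against 1.39% of all genes. The share among the mitosis genes was thus near that of all genes. For 44 of the 47 the difference was smaller than the pooled SD between libraries, and for none did the genotypes separate.

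**Figure D4:**
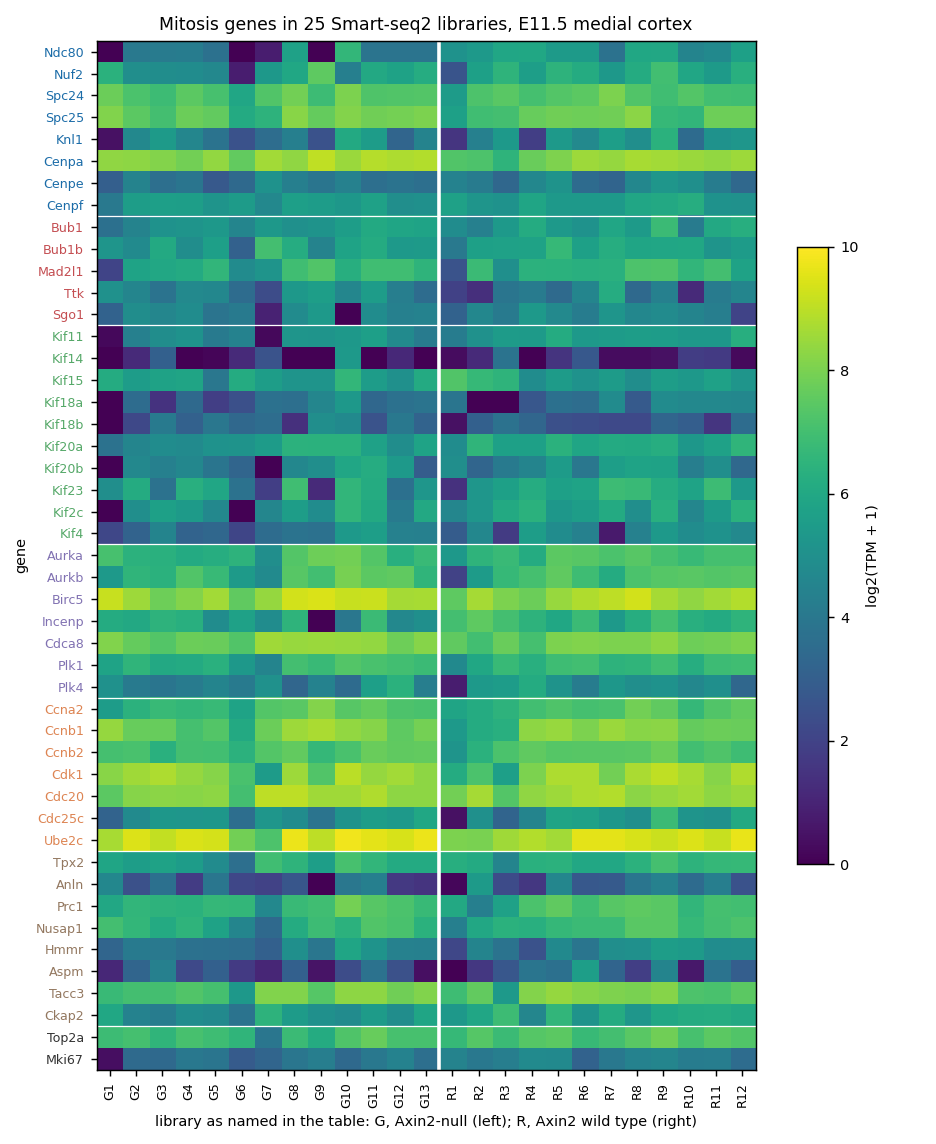
Log2(TPM + 1) of the 47 genes (rows, in role groups split by white lines and coloured names) in the 25 Smart-seq2 libraries (columns), Axin2-null on the left and wild type on the right of the white line. Ube2c, Cdc20, Cdk1, Birc5 and Cenpa are bright in nearly all libraries, Kif14 and Aspm are dark in most, and G1, G6 and R1 are dim over many genes.

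In the kinetochore group Ndc80 stood out. It ranged over 0, 13.3 and 97.2 TPM (lowest, median, highest) in Axin2-null libraries and 12.6, 42.7 and 62.8 TPM in wild-type libraries. It was listed at 0 in G1, G6 and G9 and at 0.73 TPM in G7, while G10 had the highest value of all; the difference was -2.18, and -1.63 without the 5 libraries that held fewer than 9000 genes (G1, G7, G9, G10 and R1). Of its complex partners, Nuf2 differed by -0.55, and by -1.14 without those 5 libraries, Spc24 by 0.12 and -0.13, and Spc25 by 0.23 and 0.07. Spc24 ranged over 60.2, 154 and 258 TPM in null and 44, 150.4 and 263 TPM in wild-type libraries, the smallest difference of the group. Knl1 ranged over 0.38, 18.9 and 66.7 TPM in null and 1.93, 31.4 and 83.1 TPM in wild-type libraries, a difference of -0.57.

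Among checkpoint genes Ttk had the largest difference and the one most in favour of the null libraries, at 0.83. It ranged over 3.95, 23.1 and 47.7 TPM in null and 1.3, 15.3 and 72.5 TPM in wild-type libraries, so the genotypes overlapped. Sgo1 ranged over 0, 20.9 and 41.6 TPM in null and 2.99, 22.7 and 40.3 TPM in wild-type libraries; its difference of -0.43 turned to 0.12 without the libraries under 9000 genes. Mad2l1 ranged over 3.17, 76.4 and 155 TPM in null and 4.88, 82.8 and 149.8 TPM in wild-type libraries, a difference of -0.17.

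Of 10 kinesins 9 had a lower mean log2(TPM + 1) in null libraries, as did 65.9% of all genes. Whether these shares differ was not tested. Kif14, at -0.08 on that scale, had a higher mean TPM in null (4.3) than in wild-type libraries (2.34). Kif11 ranged over 0.16, 26.4 and 49.1 TPM in null and 17.2, 43.4 and 76.8 TPM in wild-type libraries, and it was under 1 TPM in G1 and G7 only. Its difference of -1.31 became -0.81 without the libraries under 9000 genes. Kif2c ranged over 0, 30 and 94.2 TPM in null and 23.2, 44 and 83.3 TPM in wild-type libraries; it was listed at 0 in G1 and G6, and the difference of -1.07 became -0.94. Kif14 was the least detected gene, at 1 TPM or more in 6 null and 6 wild-type libraries, with at most 39.9 TPM in null and 13.1 TPM in wild type.

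In the passenger complex Incenp, which anchors Aurora B, ranged over 0, 51.9 and 111 TPM in null and 40, 89 and 182 TPM in wild-type libraries. It was listed at 0 in G9 only, and its difference of -1.34 became -0.66 without the libraries under 9000 genes. Of its partners, Cdca8 ranged over 153, 274 and 379 TPM in null and 124, 248 and 311 TPM in wild-type libraries, a difference of 0.21 (0.02 without the libraries under 9000 genes), and Aurkb over 26.7, 107 and 247 TPM in null and 2.95, 139 and 185 TPM in wild-type libraries, a difference of 0.1. The Aurkb value turned to -0.15 without the libraries under 9000 genes and to -0.31 when R1, the wild-type library with the lowest mean level, was left out.

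Cyclins, Cdk1 and APC/C partners had differences from -0.06 to 0.22, or from -0.23 to 0.19 without the libraries under 9000 genes and from -0.37 to 0.03 without R1. Ube2c was the most abundant gene, over 147, 676 and 870.1 TPM in null and 256, 579 and 814 TPM in wild-type libraries, a difference of 0.09. Ccnb1 ranged over 65.9, 213 and 422 TPM in null and 41.4, 239 and 357 TPM in wild-type libraries, a difference of 0.22 that turned to -0.21 without the libraries under 9000 genes and was 0.03 without R1. Cdc25c ranged over 7.99, 36.9 and 60.4 TPM in null and 0.35, 33.8 and 111 TPM in wild-type libraries, a difference of 0.03, or -0.37 without R1. All 8 spindle-associated genes had a lower mean log2(TPM + 1) in null libraries, as did 65.9% of all genes, again with no test of the difference. Ckap2 ranged over 13.1, 29.2 and 87.1 TPM in null and 22.8, 62.8 and 114 TPM in wild-type libraries, a difference of -0.76, or -1.02 without the libraries under 9000 genes. Aspm ranged over 0.34, 4.06 and 19.5 TPM in null and 0, 7.64 and 47.3 TPM in wild-type libraries, a difference of -0.62, and Prc1 over 24.2, 101 and 240.0 TPM in null and 19.1, 128 and 189 TPM in wild-type libraries, a difference of -0.09. Mki67 ranged over 0.29, 11.53 and 20.5 TPM in null and 7.95, 18.3 and 26.8 TPM in wild-type libraries, and Top2a over 14, 117 and 201 TPM in null and 103, 160.1 and 225 TPM in wild-type libraries, differences of -0.75 and -0.54.

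The 5 genes on chromosome 11, which MADM-11 exchanges (Kif18b, Aurkb, Birc5, Hmmr and Top2a), had differences of both signs, 0.57, 0.1, 0.16, -0.2 and -0.54; without R1 they were 0.38, -0.31, 0.07, -0.41 and -0.58. The sums of S phase genes ranged over 1378 to 3680.3 TPM in null and 1469 to 3819 TPM in wild-type libraries. D-type and E-type cyclins with their kinases ranged over 1122 to 3943 TPM in null and 1493 to 3666 TPM in wild-type libraries. In both lists the genotypes overlapped, as the mitosis genes did.

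Across the 25 libraries the mitosis genes were related to library complexity to a degree that depended on the measure. The mean log2 level of the 47 genes had a Spearman correlation of 0.55 with the number of genes detected, their summed TPM had one of 0.31, and the number of mitosis genes detected had one of 0.76. The lowest mean levels were in R1 (4.37, with 8693 genes), G6 (4.48, 10004 genes) and G1 (4.63, 8360 genes); G10 stood at 6.23 with 8537 genes. With genes that control mitotic entry the correlation of the mean log2 level was 0.9, with other spindle and cytokinesis genes 0.88, with S phase genes 0.73 and with APC/C genes 0.72. With marker lists it was 0.57 for endothelial cell and for hypothalamus markers, 0.54 for mesenchyme, 0.4 for progenitor and 0.13 for neuron markers. Only 2 of the 9 hypothalamus markers had a mean of at least 1 TPM, and 4 were at 0 in all null and 5 in all wild-type libraries. For red blood cell markers it was -0.13, with sums of 2569.8 to 43531 TPM in null and 978 to 30999.8 TPM in wild-type libraries. The endothelial markers summed to 1.11 to 57 TPM in null and 1.71 to 81.6 TPM in wild-type libraries, and the mesenchyme markers to 33 to 298 TPM in null and 49.5 to 346 TPM in wild-type libraries; their part in the level of the mitosis genes was not tested. All describe libraries that share a preparation and have unknown depth.

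**Figure D5:**
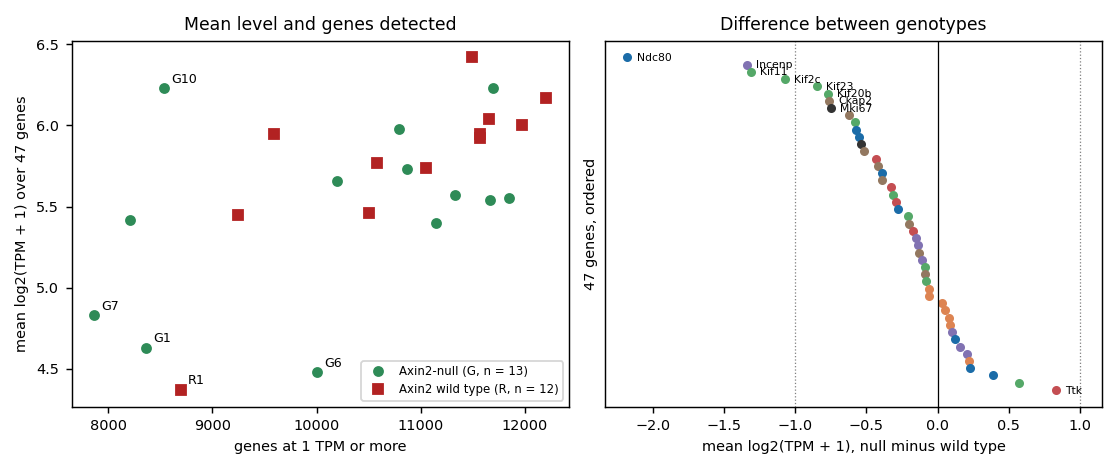
Left, mean log2(TPM + 1) of the 47 genes against the number of genes at 1 TPM or more in each library, Axin2-null as circles and wild type as squares. Right, difference in mean log2(TPM + 1), null minus wild type, for each of the 47 genes in order, with dotted lines at -1 and 1; Ndc80, Incenp, Kif11 and Kif2c lie below -1 and none lies above 1.

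Between single genes the correlation over the 25 libraries was weak, with a median Spearman of 0.27 over 1081 pairs, of which 900 were positive; it ran from -0.48 to 0.79, the highest for Aurkb and Plk1. Among 9525 genes outside the group, those most like its mean level over the 25 libraries included Rbbp7 and Apobec3 (Spearman 0.81 each), Dnmt1, Kbtbd7 and Utp4 (0.79 each), Dnaja2 and Snu13 (0.78 each), and Tcp1 and Smc3 (0.76 each). The order of levels among the 47 genes was shared between tissues and methods: the Spearman correlation of mean Smart-seq2 TPM with length-scaled bulk TPM was 0.84 for dorsal and 0.84 for ventral libraries. Ube2c, Birc5, Cdc20, Cenpa and Cdk1 led the Smart-seq2 order, and Cdc20 and Ube2c led the bulk order.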

How the data were processed

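Per the labels, bulk RNA-seq was made from 3 dorsal and 3 ventral E10.5 libraries and Smart-seq2 from 25 E11.5 libraries. The submitters' processing notes name STAR 2.7.0a, Trimmomatic and featureCounts with mm10 and GRCm38. The bulk table is named TPM, but per its values the authors deposited estimated counts: columns sum to 17604176 to 20838006 after rounding, and 46.6% of values above 0 were whole within 0.0001. The deposited Smart-seq2 values are TPM. Symbols came from GENCODE M21 (34581 of 34865 bulk and 55141 of 55487 Smart-seq2 identifiers matched).

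Counts were rounded and tested in edgeR 4.0.16 (R 4.3.3; TMM, quasi-likelihood F test, mean of at least 1 CPM, Benjamini-Hochberg threshold 0.05), tested first on simulated data. Length-scaled levels divide counts by union exon length. Smart-seq2 was described by differences of mean log2(TPM + 1), which understates changes of low genes. Alternatives were RLE and total-count scaling, other filters, DESeq2 1.42.0, a replicate block, omission of each library, other pseudocounts, medians and omission of mitochondrial genes. Values per library are given for the 2 most abundant genes of each role group, those with the largest and smallest fold change, those that did not pass and those whose call ended without 1 library; in Smart-seq2 for the 2 largest and the smallest difference per group. Other genes of a list are those with the largest fold changes, at 5 CPM or more. Lin54 and Nfyb were named for their role on the promoters, after their values were seen. The genes and lists were chosen with earlier results of these data known. Values of 2 other genes are not reported here.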

Additional observations from a re-analysis of the deposited data

How the results depend on the processing

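The sign of the dorsal over ventral difference was kept by all 47 genes in all 12 alternatives, and 32 of the 43 that passed did so in each of them. With RLE or total-count scaling 43 passed as higher in dorsal, beside 6.9% and 7.72% of all genes tested. The number was 46 with no filter on low values (4.2% of all genes) or with DESeq2 (10.52%). It was 41 with a minimum of 0.5 CPM in both regions (6.02%) and 40 with the replicate block (6.29%). Leaving out 1 library gave 33 to 45 (3.38% to 11.54% of all genes). The number higher in ventral was 0 in each, omissions included. The median log2 fold change of the 47 genes ran from 1.86 (without ventral library 3) to 2.13 (without ventral library 2). The cause was not tested. All genes tested had medians of -0.01 to 0.11 over the same settings. Whether the replicate numbers pair the libraries could not be decided, since 3 libraries per region are too few to tell. For same-numbered libraries the correlations of deviations were all positive but weak, 0.099, 0.148 and 0.165. Dorsal libraries 1 and 3 were closest to the ventral library of their own number, while the closest to dorsal library 2 was ventral library 1 (0.187). With the block Mad2l1, Kif11, Aurkb and Nusap1 no longer passed and Plk1 did. No paired analysis was possible because the Smart-seq2 columns carry no number or animal that ties libraries across genotypes. There, the number of genes past a difference of 1 was 4, and it was 1 with a pseudocount of 10 TPM, which shrinks differences of low genes by construction, and 2 with medians over libraries, of which the cause was not tested. It was 5 with a pseudocount of 0.1 TPM, which added Kif20b. Without the libraries under 9000 genes it was 3 (Ndc80, Nuf2 and Ckap2, so Kif11, Incenp and Kif2c fell short), and without R1 it was 5, with Kif23 added; both choices were made after seeing the data. The sign of the difference turned for 7 of the 47 genes without the libraries under 9000 genes, 6 without R1 and 8 with medians. In the main setting 34 of the 47 were lower in null. That number was 39 without the libraries under 9000 genes, 38 without R1 and 36 with medians. The share of all genes lower in null, 65.9%, was taken in the main setting only. A detection limit of 10 TPM gave a median of 42 genes in null and 41.5 in wild-type libraries. Leaving out libraries with under 0.5 of the median number of genes could not be run as a separate setting, since none had so few. TPM keeps no depth, so genes listed at 0 cannot be read as absent.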
